A study of Homo sapiens with 10 samples.

Results

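Aldehyde dehydrogenases are enzymes that oxidise aldehydes to carboxylic acids with NAD or NADP as the electron acceptor. Members of the family clear acetaldehyde and the aldehydes of lipid peroxidation, make retinoic acid from retinaldehyde, and carry out single steps in the breakdown and synthesis of proline, lysine, choline, carnitine and GABA. Some of the enzymes reside in the cytosol, others in mitochondria or the endoplasmic reticulum, and aldehyde dehydrogenase activity is widely used to mark stem-like cells in pancreatic and other carcinomas. The 10 genes described here are ALDH1A3, ALDH1B1, ALDH2, ALDH3A1, ALDH3A2, ALDH4A1, ALDH7A1, ALDH9A1, ALDH16A1 and ALDH18A1, taken by symbol from a table of 20263 genes. They were chosen by their TPM in LY-1 to LY-5 against NC-1 to NC-5, so their differences between these groups are given as a description. Where the fit over all genes called a member, the call rests on the values that chose it and is not evidence of a difference. The other 9 ALDH genes of the table were set beside them.

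PANC-1 cells, an established human pancreatic cancer line, were profiled by RNA sequencing after treatment with 20 µM LY (5 libraries, columns LY-1 to LY-5) or with DMSO (5 libraries, columns NC-1 to NC-5). LY is lycorine, an Amaryllidaceae alkaloid known to inhibit protein synthesis, per the series title; treatment lasted 24 h per the series text, which speaks of 4 samples per group where the labels list 5. All libraries come from 1 cell line, and no source says whether the cultures behind the libraries were separate, so spreads and p-values may cover technical variation only. The values are TPM, a level per transcript length, and the depth of the libraries is unknown. In bulk RNA a lower level in every cell and fewer cells carrying the transcript cannot be told apart.

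Mitochondrially encoded genes took 6.43% to 14.9% of all TPM in LY, against 12.2% to 14.1% in 4 DMSO libraries and 37.5% in NC-2. TPM is a share of a fixed total, and a tested gene in NC-2 stood at a median of 78.1% of its level in the other controls. Results for the members are therefore also given without NC-2. Epithelial markers KRT8 and KRT18 were abundant (1182 to 1514 TPM of KRT8 in LY, 1069 to 1601 TPM in DMSO), whereas KRT7 and CDH1 stayed below 0.5 TPM in every library. KRT18 held 941 to 1088 TPM in LY and 664 to 833 TPM in DMSO, without overlap (log2 fold change 0.50 ± 0.10, limma adjusted p = 0.00097). SOX9 held 127 to 221 TPM in LY and 96.1 to 173 TPM in DMSO (log2 fold change 0.41 ± 0.20, limma adjusted p = 0.0839). The ductal keratin KRT19 held 15.8 to 24.6 TPM in LY and 123 to 166 TPM in DMSO, without overlap (log2 fold change -2.77 ± 0.13, limma adjusted p = 1.48e-08). EPCAM held 0.767 to 1.76 TPM in LY and 0.351 to 1.32 TPM in DMSO (log2 fold change 0.36 ± 0.17, limma adjusted p = 0.0809). All 5 acinar and all 4 endocrine markers were listed at 0 throughout. The 4 leukocyte markers summed to 131 to 232 TPM in LY and 34.5 to 47.3 TPM in DMSO, nearly all of it CD68, with CD3E at 0. The 3 endothelial markers summed to 2.74 to 3.32 TPM in LY and 0.0988 to 0.535 TPM in DMSO, nearly all of it CDH5, with PECAM1 at 0. The 5 fibroblast markers summed to 0.310 to 0.601 TPM in LY and 2.70 to 3.88 TPM in DMSO. The part of these shifts in the results below was not tested.

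Of the 10 members, 8 passed the filter on low values (5 or more libraries of the 10 at 1 TPM or above), and ALDH2 and ALDH3A1 did not. In a limma-trend fit of log2(TPM + 1) over all 11663 kept genes, an adjusted p under 0.05 counted as called. By that rule 2 members (ALDH1B1 and ALDH18A1) were called up and 3 (ALDH3A2, ALDH7A1 and ALDH16A1) down. Over all tested genes 64.6% were called, 39.8% up and 24.9% down. Since the members were named with this contrast known, nothing is read from their count. The LY and DMSO libraries did not overlap for 4 of the 8 kept members, against 49.4% of all tested genes. Without NC-2 they did not overlap for 6 of the 8, against 61.4% of all tested genes. With all libraries that number was 3 under median-ratio scaling or with mitochondrially encoded genes removed, and 2 under quantile or upper-quartile scaling. Without NC-2 it was 7 under median-ratio scaling. The share of all tested genes under these settings was not counted, so nothing is read from these numbers. The members' median log2 fold change was -0.27, and that of all tested genes was 0.17. Fold changes below are LY over DMSO on the log2(TPM + 1) scale ± SE of this fit, in which 0.17 is the middle of all genes and not 0.

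**Figure D1:**
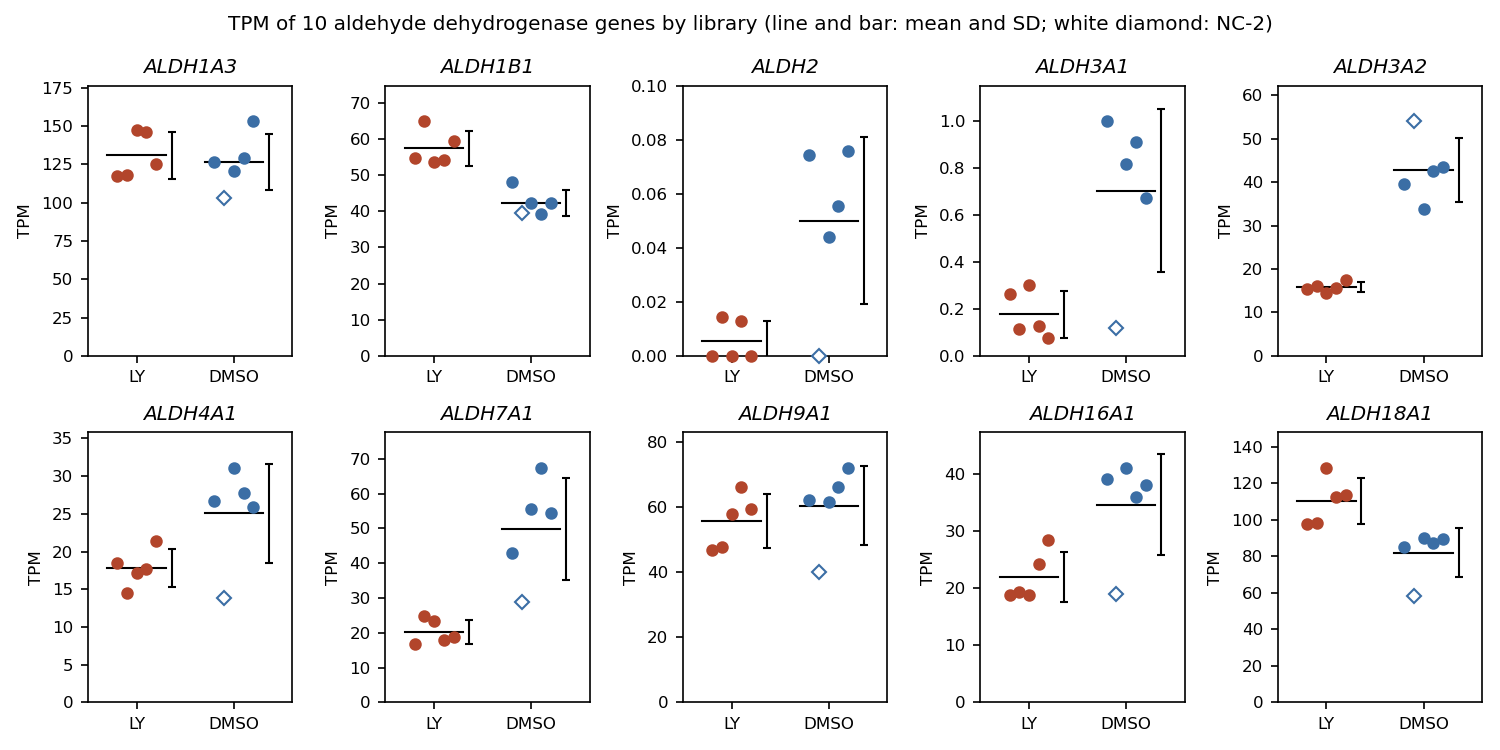
TPM of each of the 10 members (vertical axes, linear, each from 0) in the LY libraries (left) and the DMSO libraries (right), 1 point per library; the line and bar give the mean and SD over 5 libraries, and the white diamond is NC-2. ALDH3A2 lies at 14.6 to 17.5 TPM in LY and 33.8 to 54.0 TPM in DMSO, and NC-2 is the lowest control for 8 members, all but ALDH1B1 and ALDH3A2.

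ALDH1A3, a cytosolic enzyme that makes retinoic acid from retinaldehyde, was the most abundant of the 10 members. It lies on chromosome 15 (100877714 to 100916626, plus strand, hg38) and overlaps noncoding genes on both strands, and whether the counting used strand is not given in the sources used here. ALDH1A3 held 117, 118, 148, 146 and 125 TPM in the LY libraries, against 127, 103, 121, 129 and 153 TPM in the DMSO libraries. The groups overlapped over most of their range, with a log2 fold change of 0.05 ± 0.12. Without NC-2 the value was -0.02 ± 0.10, and under 4 other scalings of the libraries it ran from -0.23 to -0.10, and was called down under quantile scaling.

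The mitochondrial enzymes ALDH1B1 and ALDH2 both oxidise acetaldehyde, ALDH2 being the main one in ethanol metabolism of the liver. ALDH1B1 (chromosome 9, 38392664 to 38398661, plus strand) held 54.7, 64.9, 53.7, 54.0 and 59.5 TPM in LY, against 48.2, 39.5, 42.4, 39.2 and 42.4 TPM in DMSO. Every LY library was above every DMSO library, NC-2 included, and the log2 fold change was 0.43 ± 0.09 (0.41 ± 0.09 without NC-2). ALDH2 (chromosome 12, 111766887 to 111817529, plus strand) was close to absent from the table in both groups: LY-2 held 0.0144 TPM, LY-4 held 0.0128 TPM and the other LY libraries were listed at 0. In DMSO it measured 0.0745, 0.0442, 0.0555 and 0.0758 TPM, and NC-2 was listed at 0. At these levels no fold change is given. Of the pair, nearly all TPM in every library was that of ALDH1B1. ALDH2 overlaps a protein-coding gene on its own strand, whereas GENCODE lists no gene that overlaps ALDH1B1.

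The bases upstream of the RefSeq start are shown for ALDH1B1 and ALDH18A1, the 2 members called up as deposited. Of the 10 members 7 had an entry in the RefSeq promoter table (GRCh38.p14), and 250 bases before each start were searched on both strands. Capitals mark the GC box (GGGCGG) and the E-box (CACGTG), and neither stretch shown holds a CCAAT box (CCAAT). For ALDH1B1 the last 38 bases before the RefSeq start, which hold its CCAAT box, are left out because a GENCODE transcript covers them. The ALDH18A1 window is chr10:95656712-95656961 (minus strand) and the ALDH1B1 window chr9:38392452-38392663 (plus strand), both written 5′ to 3′ on the strand of the gene.
ALDH18A1: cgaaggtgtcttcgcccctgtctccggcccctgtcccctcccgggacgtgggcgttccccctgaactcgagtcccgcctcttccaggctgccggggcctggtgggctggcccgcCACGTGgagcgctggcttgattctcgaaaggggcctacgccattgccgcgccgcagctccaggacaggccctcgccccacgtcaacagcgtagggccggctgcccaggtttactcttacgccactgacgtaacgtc
ALDH1B1: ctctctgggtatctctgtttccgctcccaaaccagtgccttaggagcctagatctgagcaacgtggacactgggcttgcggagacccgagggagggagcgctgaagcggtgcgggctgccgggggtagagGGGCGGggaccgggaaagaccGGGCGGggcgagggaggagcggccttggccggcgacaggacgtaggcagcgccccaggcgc
The ALDH18A1 window holds 1 E-box and no GC box, whereas the ALDH1B1 window holds 2 GC boxes and no E-box. Among all 35116 windows of 250 bases in the table, 42.6% hold a GC box, 32.0% a CCAAT box and 6.34% an E-box. Of the 9 windows of the 7 members with an entry, 6 held a GC box, 4 a CCAAT box and 2 (of ALDH18A1 and ALDH3A2) an E-box. The antioxidant response element core TGACNNNGC (10.9% of all windows) and the ATF4 composite element TGATGNAA (3.14%) occurred in none of the 9, nor did the TATA box TATAAA (10.7%). The xenobiotic response element core GCGTG occurred in 2 of the 9 windows, of ALDH1A3 and ALDH3A2, against 32.2% of all windows. These letters describe the windows and are not evidence of binding.

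ALDH3A1 and ALDH3A2 oxidise medium- and long-chain aldehydes. Their genes lie on the short arm of chromosome 17 with 60385 bases and the transporter gene SLC47A2 between them. ALDH3A2, the fatty aldehyde dehydrogenase of the endoplasmic reticulum whose loss causes Sjögren-Larsson syndrome, held 15.3, 16.2, 14.6, 15.6 and 17.5 TPM in LY, against 39.6, 54.0, 33.8, 42.5 and 43.5 TPM in DMSO. No libraries overlapped, and within LY its spread was the smallest of the 10 members (coefficient of variation 6.91%). Its log2 fold change of -1.36 ± 0.12 was the lowest of the kept members. ALDH3A2 was also the member that went highest in NC-2, at 132% of the median of the other controls. Without NC-2 its log2 fold change was -1.27 ± 0.09. ALDH3A2 spans 19648136 to 19677598 on the plus strand and overlaps an antisense gene.

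ALDH3A1, known from cornea and stomach and as a gene induced by dioxin-type compounds in rodents, was far lower than its neighbour. It held 0.262, 0.116, 0.302, 0.128 and 0.0744 TPM in LY, against 1.0, 0.119, 0.816, 0.912 and 0.674 TPM in DMSO, where NC-2 was the low value. The 4 other controls were all above every LY library, whereas NC-2 fell within the LY range. ALDH3A1 did not pass the filter on low values, and its gene (19737984 to 19748943, minus strand) overlaps an antisense gene.

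Proline metabolism has a family member at each end of the same intermediate: ALDH18A1 makes pyrroline carboxylate from glutamate, and ALDH4A1 turns it back into glutamate. Both work in mitochondria. ALDH18A1 (chromosome 10, 95605929 to 95656706, minus strand) held 97.9, 98.1, 128, 112 and 114 TPM in LY, against 85.1, 58.4, 90.2, 87.0 and 89.4 TPM in DMSO. The groups did not overlap, although the lowest LY library was only slightly above the highest control, and NC-2 alone stretched the DMSO range downward. Its log2 fold change was 0.43 ± 0.13, and 0.31 ± 0.09 without NC-2. ALDH4A1 (chromosome 1, 18871430 to 18902781, minus strand, overlapped by the protein-coding AL080251.1 on the same strand) held 18.5, 14.5, 17.1, 17.6 and 21.4 TPM in LY, against 26.7, 13.8, 31.1, 27.7 and 25.9 TPM in DMSO. The 4 controls other than NC-2 were all above LY, while NC-2 was below every LY library. The ALDH4A1 log2 fold change was -0.43 ± 0.19 with all libraries and -0.62 ± 0.11 without NC-2, and it was called only without NC-2 or under another scaling of the libraries.

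ALDH7A1, also called antiquitin, oxidises aminoadipic semialdehyde in lysine breakdown, and its loss causes pyridoxine-dependent epilepsy. It held 16.7, 24.8, 23.2, 18 and 18.7 TPM in LY, against 42.9, 28.8, 55.4, 67.4 and 54.3 TPM in DMSO. The groups did not overlap, and NC-2 was the nearest control to LY. The log2 fold change was -1.21 ± 0.20, and -1.39 ± 0.15 without NC-2. ALDH7A1 lies on chromosome 5 (126531200 to 126595418, minus strand), and GENCODE lists 4 processed pseudogenes of it, on chromosomes 2, 5, 7 and 10, none of which is a row of the table. How reads shared with these copies were counted is not given in the sources used here, so its level is uncertain to that extent.

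ALDH9A1 oxidises trimethylaminobutyraldehyde in carnitine synthesis and aminobutyraldehyde from polyamines. The gene lies on chromosome 1 (165662216 to 165698863, minus strand). It held 46.9, 47.9, 57.9, 66.4 and 59.6 TPM in LY, against 62.2, 40.2, 61.8, 66.4 and 72.2 TPM in DMSO, and the groups overlapped with or without NC-2. Its log2 fold change was -0.10 ± 0.16, -0.24 ± 0.11 without NC-2, and -0.37 to -0.26 under 4 other scalings, where it was called down. ALDH16A1, whose human protein lacks the catalytic cysteine of the family and binds maspardin, held 18.8, 19.4, 18.8, 24.3 and 28.5 TPM in LY. In DMSO it held 39.1, 41.2, 36.1 and 38.1 TPM and, in NC-2, 19.1 TPM. NC-2 lay among the lower LY libraries and the other 4 controls above all of LY, with a log2 fold change of -0.61 ± 0.20 (-0.80 ± 0.13 without NC-2). ALDH16A1 (chromosome 19, 49453169 to 49471048, plus strand) overlaps the protein-coding genes AC010619.1 on its own strand and PIH1D1 on the opposite one, so their reads may not be fully told apart.

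**Figure D2:**
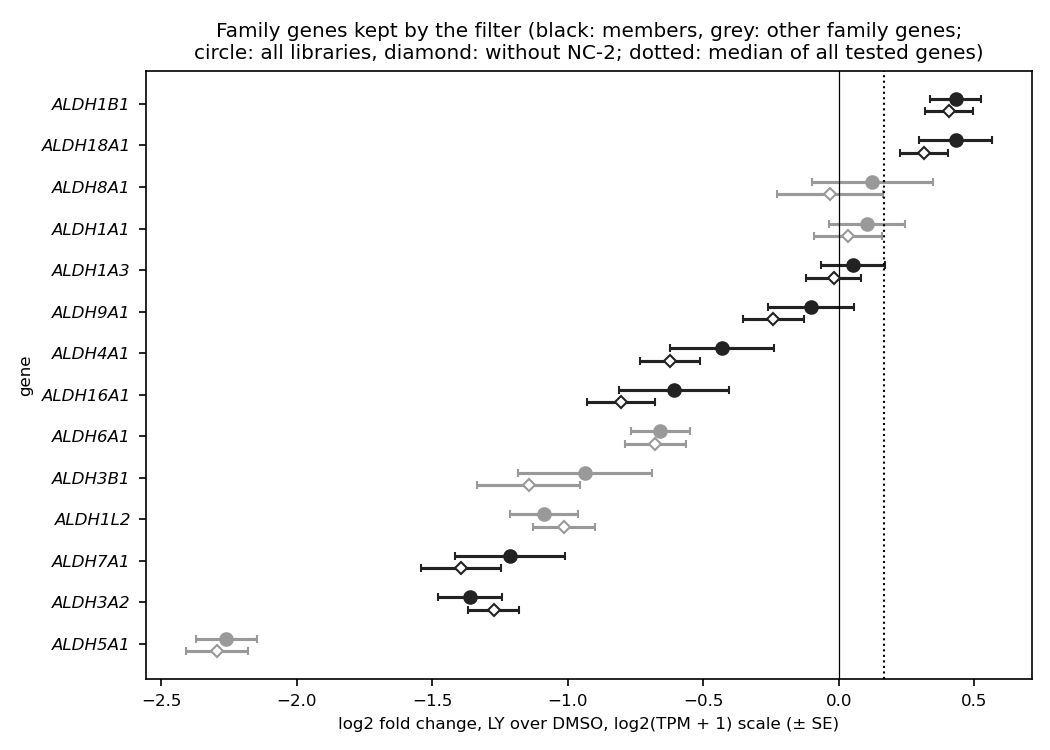
Log2 fold change of LY over DMSO ± SE (horizontal axis) for the 14 family genes that passed the filter (rows), with members in black and the other family genes in grey; circles use all libraries, diamonds leave out NC-2, and the dotted line is the median of all tested genes (0.17). ALDH3A2 (-1.36) and ALDH7A1 (-1.21) are the lowest members, and ALDH5A1 (-2.26), a family gene outside the 10, is lower than both.

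The summed level of the members was 430.2 ± 33.2 TPM in LY and 464 ± 63.1 TPM in DMSO (SD, n = 5 each). The groups overlapped only through NC-2, at 357 TPM. This sum ran from 386 to 462 TPM in LY and from 472 to 519.8 TPM in the controls other than NC-2. Its make-up differed. Shares within this sum do not change when all genes of a library are multiplied by the same factor. Quantile scaling is not of that kind, and shares under it were not computed. ALDH18A1 took 24.3% to 27.8% of the members' TPM in LY and 16.4% to 18.9% in DMSO, and ALDH1B1 took 11.6% to 16.1% in LY and 7.91% to 11.1% in DMSO. ALDH3A2 took 3.15% to 4.01% in LY and 7.08% to 15.1% in DMSO, where the highest control other than NC-2 was at 8.56%. ALDH7A1 took 3.95% to 6.13% in LY and 8.06% to 13.6% in DMSO. For each of these 4 genes the LY and DMSO ranges of the share did not overlap, NC-2 included. They are the same 4 members whose TPM did not overlap, so the shares are no separate evidence. The ranges overlapped for ALDH4A1 (3.59% to 4.83% in LY, 3.87% to 6.51% in DMSO) and ALDH16A1 (4.08% to 6.42% in LY, 5.34% to 8.62% in DMSO). The share of ALDH9A1 was 12.9 ± 1.11% in LY and 12.9 ± 0.988% in DMSO. ALDH1A3 took 28.2% to 32.2% in LY and 25.3% to 29.5% in DMSO.

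**Figure D3:**
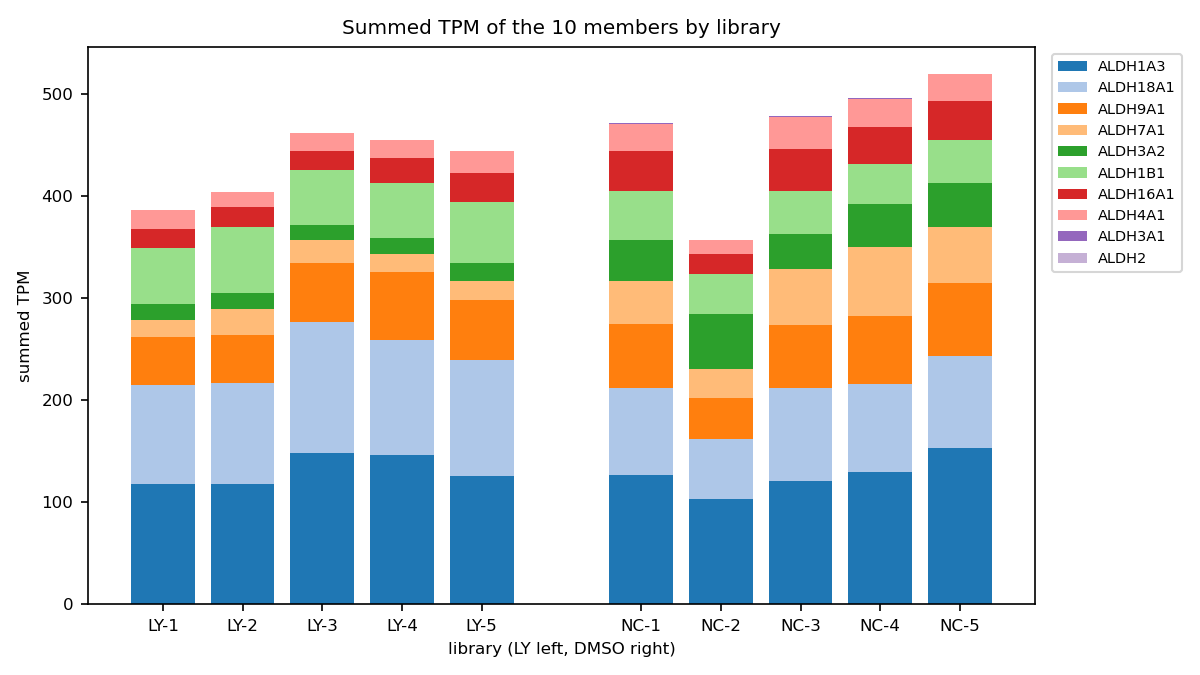
Summed TPM of the 10 members (vertical axis) in each library, with LY on the left and DMSO on the right and 1 colour per gene. The sum runs from 386 to 462 TPM in LY and from 357 (NC-2) to 519.8 TPM in DMSO, with thinner bands of ALDH3A2 and ALDH7A1 in every LY library.

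The order of levels differed between the groups at its middle. In LY the members ran from ALDH1A3 (131 ± 15.1 TPM) through ALDH18A1 (110.1 ± 12.7), ALDH1B1 (57.4 ± 4.81), ALDH9A1 (55.7 ± 8.26), ALDH16A1 (21.98 ± 4.33), ALDH7A1 (20.3 ± 3.51), ALDH4A1 (17.8 ± 2.51) and ALDH3A2 (15.8 ± 1.09) to ALDH3A1 and ALDH2. In DMSO the order was ALDH1A3 (127 ± 18.1 TPM), ALDH18A1 (82.0 ± 13.3), ALDH9A1 (60.6 ± 12.1), ALDH7A1 (49.8 ± 14.6), ALDH3A2 (42.7 ± 7.37), ALDH1B1 (42.3 ± 3.61), ALDH16A1 (34.7 ± 8.94) and ALDH4A1 (25.1 ± 6.60), again followed by ALDH3A1 and ALDH2. Neighbours in the LY order overlapped in range for ALDH1A3 and ALDH18A1, for ALDH1B1 and ALDH9A1, and all along the run from ALDH16A1 to ALDH3A2. In DMSO ALDH1A3 stood above the rest, and each gene from ALDH18A1 to ALDH4A1 overlapped the next. ALDH3A2 stood last of the 8 kept members in LY, and above ALDH1B1, ALDH16A1 and ALDH4A1 by mean in DMSO. Its place above ALDH1B1 rests on NC-2, which held 54.0 TPM of ALDH3A2. The other controls held 33.8 to 43.5 TPM of ALDH3A2 and 39.2 to 48.2 TPM of ALDH1B1.

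Outside the 10, ALDH1A1, the cytosolic retinaldehyde dehydrogenase often used as a stem cell marker, exceeded every member. It held 704, 558, 865, 869 and 707 TPM in LY, against 757, 560.1, 725, 673 and 704 TPM in DMSO. ALDH1A1 made up 61.8 ± 3.29% of all ALDH TPM in LY and 57.7 ± 1.83% in DMSO, and its own change did not pass (log2 fold change 0.10 ± 0.14, limma adjusted p = 0.531). Of the 9 other ALDH genes 6 were tested, of which 4 fell, none rose, and ALDH1A1 and ALDH8A1 did not pass. Over all tested genes 24.9% were called down and 39.8% up. The median log2 fold change of the 6 was -0.80, against 0.17 over all genes.

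The lowest log2 fold change of the 14 tested family genes was that of ALDH5A1, the mitochondrial succinic semialdehyde dehydrogenase that ends GABA breakdown. It held 0.806, 0.647, 1.06, 1.05 and 1.03 TPM in LY, against 9.21, 7.31, 8.96, 8.65 and 6.89 TPM in DMSO (log2 fold change -2.26 ± 0.11, limma adjusted p = 2.41e-08). Every LY library was below every control, NC-2 included; the gene overlaps GPLD1 on the opposite strand. ALDH1L2, the mitochondrial formyltetrahydrofolate dehydrogenase, measured 1.55 ± 0.321 TPM in LY and 4.43 ± 0.730 in DMSO (log2 fold change -1.09 ± 0.12, limma adjusted p = 1.14e-05). ALDH6A1, which acts in valine breakdown, measured 4.02 ± 0.475 TPM in LY and 6.94 ± 0.872 in DMSO (log2 fold change -0.66 ± 0.11, limma adjusted p = 0.000211). ALDH3B1 measured 3.48 ± 0.730 TPM in LY and 8.02 ± 3.34 in DMSO (log2 fold change -0.94 ± 0.25, limma adjusted p = 0.00538), and NC-2, with 3.76 TPM, was the control within the LY range. ALDH8A1, of the kynurenine pathway, held 7.69 to 16.0 TPM in LY and 6.07 to 13.6 TPM in DMSO (log2 fold change 0.12 ± 0.22, limma adjusted p = 0.645). ALDH1A2 stayed at or below 0.560 TPM in LY and 0.0814 TPM in DMSO, ALDH1L1 was listed at 0 in LY and stayed at or below 0.193 TPM in DMSO, and ALDH3B2 was listed at 0 throughout.

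Genes around the members were described in 10 lists, which were drawn up with earlier results of these data known. In all, 22 of 68 tested list genes rose and 25 fell, against 39.8% and 24.9% of all tested genes, and the median log2 fold change was 0.01 against 0.17. These values are those of the deposited scale. With upper-quartile scaling 3346 of all genes were called up and 4371 down. The lists were not summed by direction under other scalings, so no lean of the lists is read from these counts. In the retinoid pathway around ALDH1A3, 4 of 12 tested genes rose, 7 fell and 1 did not pass (median -0.71). STRA6, the membrane receptor that takes up retinol, measured 0.586 ± 0.296 TPM in LY and 5.28 ± 2.30 in DMSO (log2 fold change -1.91 ± 0.26, limma adjusted p = 5.18e-05). In LY it lay near the filter of 1 TPM, at 0.293 to 1.02 TPM, and it passed that filter through the DMSO libraries. Its log2 fold change ran from -2.93 to -1.73 over the alternative settings. RXRA, the partner of the retinoic acid receptors, measured 15.0 ± 2.22 TPM in LY and 43.6 ± 10.2 in DMSO (-1.45 ± 0.17), and the retinaldehyde reductase DHRS3 4.81 ± 0.858 in LY and 14.8 ± 3.22 in DMSO (-1.42 ± 0.17). RETSAT, a retinol saturase (1.25 ± 0.14), the receptor RARA (0.91 ± 0.11) and FABP5, a carrier of fatty acids and retinoic acid (0.55 ± 0.09), rose. ALDH1A3 itself was among neither set.

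In proline and glutamate semialdehyde metabolism, around ALDH18A1 and ALDH4A1, 3 of 7 tested genes rose, 1 fell and 3 did not pass (median 0.50). That median is the value of PYCR3 (0.50 ± 0.39, limma adjusted p = 0.273), which was not called. PYCR3 held 6.42 TPM in NC-2, below every other library. The list median without NC-2 was not computed, so no shift of the list is read from it. ARG2, the mitochondrial arginase, measured 9.21 ± 1.61 TPM in LY and 3.80 ± 1.52 in DMSO (log2 fold change 1.14 ± 0.22, limma adjusted p = 0.00071). OAT, which makes the same intermediate from ornithine, measured 112 ± 15.2 TPM in LY and 172 ± 30.8 in DMSO (log2 fold change -0.60 ± 0.15, limma adjusted p = 0.00338).

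Alcohol dehydrogenases and carbonyl reductases interconvert aldehydes and alcohols. ADH5, the formaldehyde-clearing enzyme and the sole tested alcohol dehydrogenase of 8, measured 45.5 ± 11 TPM in LY and 82.1 ± 25.9 in DMSO (log2 fold change -0.80 ± 0.23, limma adjusted p = 0.00966). Of the aldehyde and carbonyl reductases and oxidases, 1 of 10 tested genes rose, 7 fell and 2 did not pass (median -0.72). CBR3, a carbonyl reductase, measured 7.55 ± 1.47 TPM in LY and 43.7 ± 11.8 in DMSO (-2.35 ± 0.21). CBR1 (-1.20 ± 0.42) and PTGR1, which reduces lipid-derived enals (-0.99 ± 0.18), also fell. CBR1 was no longer called without LY-1, NC-1 or NC-3 (log2 fold change -1.08, -0.96 and -0.95). SORD, the sorbitol dehydrogenase, was the gene that rose (0.28 ± 0.11, limma adjusted p = 0.0425), and it did not pass under 4 other scalings or without any 1 of LY-2, LY-3, LY-4, LY-5, NC-3 and NC-5. Of the acetate and acetyl-CoA enzymes, the acetate-activating ACSS1 (-2.04 ± 0.19) and ACSS2 (-1.36 ± 0.17) fell, and no gene of that list rose. The citrate-cleaving ACLY did not pass (-0.17 ± 0.16, limma adjusted p = 0.366), but the number of this list called down was 3 of 3 without NC-2 and under each of the 4 other scalings.

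Fatty aldehyde and sphingolipid breakdown, around ALDH3A2, went both ways: 5 of 10 tested genes rose, 2 fell and 3 did not pass (median 0.28). SPHK1, a sphingosine kinase, measured 85.7 ± 28.7 TPM in LY and 10.6 ± 2.24 in DMSO (log2 fold change 2.84 ± 0.24, limma adjusted p = 1.04e-06). HACL1 of peroxisomal alpha-oxidation (0.89 ± 0.20) and SPHK2 (0.71 ± 0.15) rose. PECR, a peroxisomal enoyl-CoA reductase, measured 1.98 ± 0.375 TPM in LY and 17.1 ± 3.87 in DMSO (-2.58 ± 0.17), and SGPP2, a sphingosine phosphate phosphatase, fell slightly (-0.44 ± 0.17, limma adjusted p = 0.0358), a call lost without any 1 of LY-1, LY-2, NC-3, NC-4 and NC-5. In lysine breakdown, around ALDH7A1, 1 of 4 tested genes rose and 1 fell: DLST (1.0 ± 0.14), also a subunit of the citric acid cycle, and DHTKD1 (-0.67 ± 0.12). AASS, which starts the pathway, was not among the tested genes.

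Of the choline, carnitine, amine and GABA genes around ALDH9A1 and ALDH7A1, 3 of 8 tested genes rose, 1 fell and 4 did not pass (median 0.24). SAT1, which acetylates polyamines, measured 492 ± 35.5 TPM in LY and 104 ± 32.7 in DMSO (log2 fold change 2.28 ± 0.18, limma adjusted p = 5.63e-07). MAOA, an amine oxidase that releases aldehydes (1.70 ± 0.13), and GAD1, which makes GABA (1.57 ± 0.14), rose, and the choline dehydrogenase CHDH fell (-1.39 ± 0.14). GAD1 held 4.44 ± 0.399 TPM in LY and 0.859 ± 0.360 in DMSO, opposite in direction to ALDH5A1 of the same pathway. Each lay near the filter of 1 TPM in its lower group, GAD1 at 0.415 to 1.25 TPM in DMSO and ALDH5A1 at 0.647 to 1.06 TPM in LY. Of the NAD and NADP supply genes, 3 of 8 tested genes rose, 1 fell and 4 did not pass (median 0.08): NAMPT (1.26 ± 0.11), NMNAT1 (1.0 ± 0.21) and NMNAT2 (0.97 ± 0.11) rose and NADSYN1 fell (-0.55 ± 0.11). Of the aryl hydrocarbon receptor battery, to which ALDH3A1 belongs in rodents, 2 of 5 tested genes rose and 2 fell (median -0.16). TIPARP (1.90 ± 0.15) and ARNT (0.41 ± 0.09) rose, and NQO1 (-1.33 ± 0.21) and CYP1B1 (-0.82 ± 0.14) fell; under 4 other scalings ARNT did not pass. AHR itself did not pass the filter on low values, with 0.762 to 1.47 TPM in LY and 0.314 to 0.487 TPM in DMSO.

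**Figure D4:**
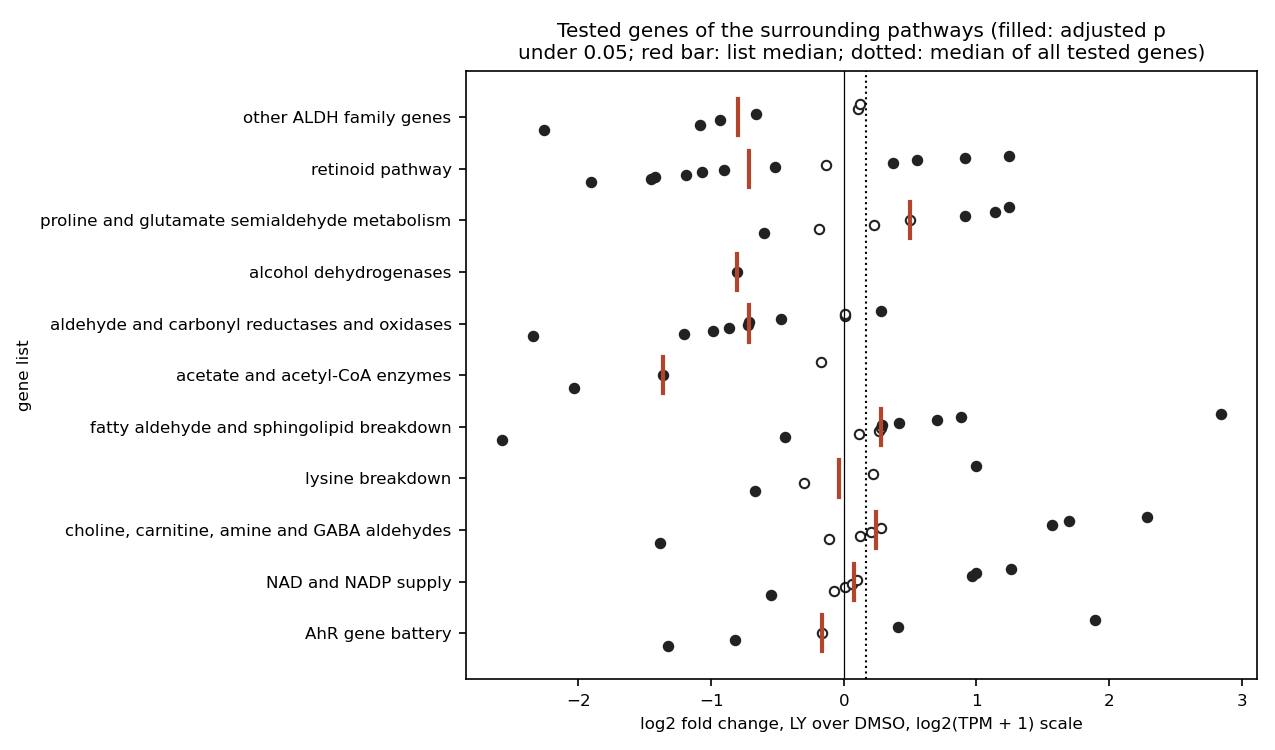
Log2 fold change of LY over DMSO (horizontal axis) for every tested gene of the other ALDH genes and of the 10 surrounding lists (rows), filled where the limma adjusted p was under 0.05; red bars are list medians and the dotted line is the median of all tested genes. Retinoid genes and reductases lie mostly to the left (medians -0.71 and -0.72). The proline median lies to the right (0.50), at a gene that was not called and was low in NC-2.

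Directions of the members were checked under 4 other scalings of the libraries, namely removal of mitochondrially encoded genes, median-ratio, quantile and upper-quartile scaling. As deposited, the median log2 fold change of all genes was 0.17, and under these scalings it was 0.03, 0.01, 0.05 and -0.08. ALDH3A2 ran from -1.62 to -1.52, ALDH7A1 from -1.48 to -1.37, ALDH16A1 from -0.87 to -0.76 and ALDH4A1 from -0.69 to -0.58. ALDH1B1 kept a positive sign at 0.17 to 0.28 and ALDH18A1 at 0.15 to 0.27. Both were called up with mitochondrial genes removed and with median-ratio scaling, and neither was called with quantile or upper-quartile scaling. ALDH4A1 and ALDH9A1 were called down under all 4. ALDH1B1 and ALDH18A1 had the highest and ALDH3A2 and ALDH7A1 the lowest log2 fold changes of the kept members under all 5.

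**Figure D5:**
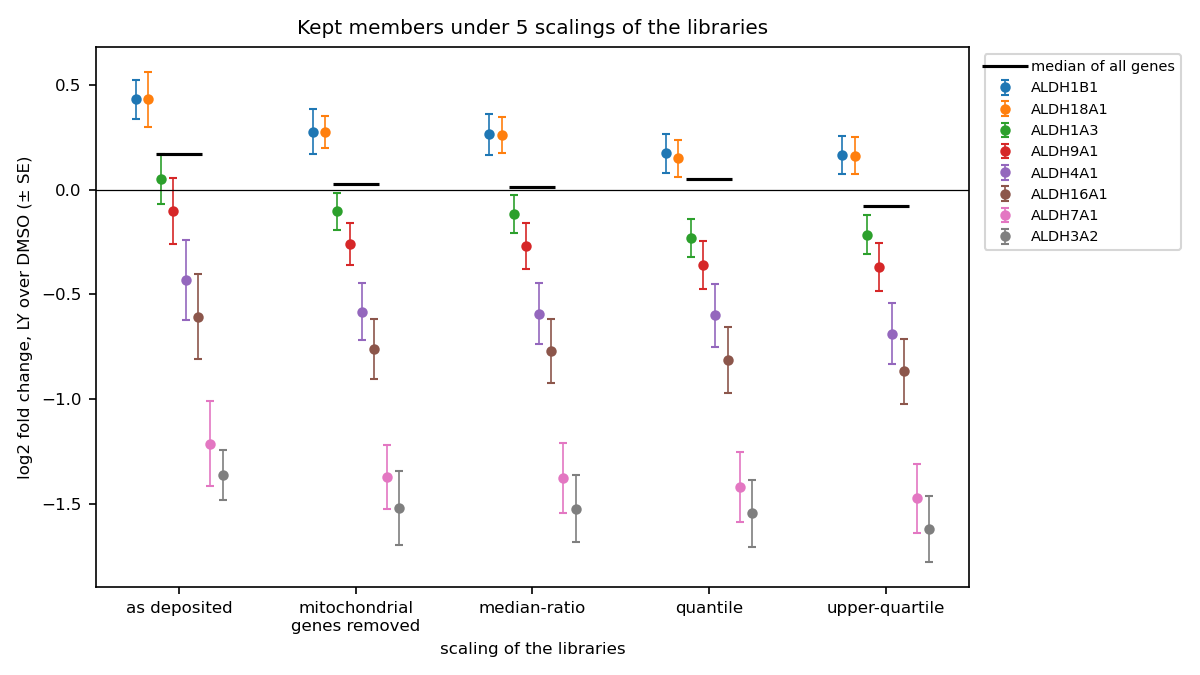
Log2 fold change of LY over DMSO ± SE (vertical axis) of the 8 kept members under 5 scalings of the libraries (horizontal axis), with the median of all tested genes as black dashes. All members shift down together from the deposited values, ALDH1B1 and ALDH18A1 to 0.15 to 0.28, and ALDH3A2 and ALDH7A1 remain lowest at -1.62 to -1.37.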

How the data were processed

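RNA of PANC-1 cells was sequenced in 10 libraries, 5 LY and 5 DMSO. RNA extraction is given as Trizol in the series text and as an RNeasy kit per the labels, which name a Hieff NGS MaxUp mRNA kit for the libraries. The authors deposited TPM, with 1 column per library (column sums 999932 to 999967); no scaling across libraries, aligner, counting tool or annotation is given in the sources used here. The builds GRCm38, mm10 and hg38 are listed per the submitters' processing notes without roles. The LY columns match sample titles; the columns NC-1 to NC-5 occur in no title and were assigned to DMSO as a group. Of 20263 Ensembl IDs, 20148 were named from a gene table and 76 from GENCODE release 29, whose hg38 positions are printed.

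Genes at 1 TPM or above in 5 or more libraries were fitted on log2(TPM + 1) with limma 3.58.1 (R 4.3.3), mean-variance trend, group as the sole term, and Benjamini-Hochberg adjustment over 11663 genes (called at 0.05). The pseudocount understates changes of low genes. The script was tested on simulated data. Members and lists were chosen with earlier results of these data known. The text names the 10 members, the 9 other ALDH genes and, per list, up to 3 called genes with the largest change in each direction; some of these are not reported here, though list counts include them. The alternatives were other pseudocounts, filters, scalings and moderation, and leaving out each library.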

Additional observations from a re-analysis of the deposited data

Results flagged for a closer look

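Of 103 combinations of a named gene and a group, 10 held a library far from the other 4 by Dixon's ratio (above 0.71). Chance gives about 1 in 20 for independent, normally distributed values. These combinations share the same libraries and are not independent, so the number flagged was not tested against chance. In 8 of these the library was NC-2, the control with 37.5% mitochondrially encoded TPM, and it was the lowest of its group each time. Among the members, NC-2 held 19.1 TPM of ALDH16A1 (the other controls 36.1 to 41.2) and 58.4 TPM of ALDH18A1 (85.1 to 90.2). Among the surrounding genes, NC-2 held 22.7 TPM of CBR3 (46.5 to 51.3), 9.07 of DHRS3 (15.8 to 17.0), 38.0 of DHTKD1 (53.6 to 56.6), 103 of DLST (155 to 175), 10.2 of PECR (18.2 to 19.7) and 32.0 of RETSAT (45.1 to 48.0). In LY, LY-4 held 75.1 TPM of CBR1 (the others 30.8 to 42.6) and LY-3 held 25.9 TPM of NADSYN1 (21.8 to 22.3).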

How the results depend on the processing

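No paired analysis was possible because the numbers of the control columns cannot be tied to the replicate numbers of the labels. Genes called up and down numbered 4639 and 2899 as deposited, 3346 and 4371 with upper-quartile scaling, and 4400 to 4607 and 2633 to 3610 when each library was left out, the 3610 being without NC-2. Called members numbered 5, and 5 to 6 without each library, the sixth being ALDH4A1 without NC-2. With no filter 7 were called, 5 of them down, ALDH2 and ALDH3A1 added. Removal of mitochondrially encoded genes gave 7 members (2 up, 5 down), against 3871 of all genes up and 3812 down. Median-ratio scaling also gave 7 (2 up, 5 down), against 3853 and 3863 of all genes. Quantile scaling gave 6 members, all down, against 4054 and 3695 of all genes. Upper-quartile scaling gave 5 members, all down. The number of called members and their directions thus depended on the scaling. Called genes among the other ALDH genes numbered 4, 4 without each library and 2 with a minimum TPM of 5, where fewer genes were tested. With no filter they numbered 5, of which 1 was called up. Called list genes numbered 47, and 42 to 50 without each library. ALDH1A1, not called, turned from 0.10 to -0.066 with median-ratio, -0.057 with quantile, -0.17 with upper-quartile scaling, -0.053 without mitochondrial genes and -0.069 under median-ratio scaling of the 9 libraries other than NC-2. ALDH8A1, not called, turned from 0.12 to -0.031 with median-ratio, -0.12 with upper-quartile scaling, -0.019 without mitochondrial genes, -0.0089 without LY-5, -0.032 without NC-2 (-0.032 to 0.23 over the omissions of 1 library) and -0.13 under median-ratio scaling of those 9 libraries. Of the 38 other named genes that were called, 38 kept their sign and 34 their call under every alternative that tested them, the exceptions being CBR1, SORD, SGPP2 and ARNT. The cause was not tested. Depth is unknown, so no limit from it is given.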
